A study of Danio rerio with 45 samples.

Results

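Splicing factor and heterogeneous nuclear ribonucleoprotein (hnRNP) genes were followed through the first 10 h of zebrafish development, in whole embryos with a knockdown of Rad21, with a knockdown of CTCF, or with neither. The genes were taken by name from the authors' gene table. A gene was kept when its name began with srsf and a digit, hnrnp, sf3a or sf3b and a digit, prpf and a digit, or snrp, when the row held 1 name, and when it reached 1 FPKM (fragments per kilobase of transcript, scaled to the fragments mapped in the library) in at least 3 libraries. Of 31966 rows, 66 genes met this rule, on 23 chromosomes with at most 6 on one of them. They are 14 genes of serine/arginine-rich (SR) proteins, 20 of hnRNP proteins, 7 of SF3A and SF3B subunits, 14 of PRPF proteins and 11 of small nuclear ribonucleoprotein (snRNP) proteins. Name matches left out were a row that lists SF3B3 (1 of 2) together with sf3b3, and snrpf, which is listed at 0 in every library. The member nearest the threshold was hnrnpa3, with 1 FPKM in 7 libraries and a highest value of 2.77 FPKM. Next came HNRNPH3, which reached 1 FPKM in 34 libraries. The other members passed in all 45 libraries.

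Splicing removes introns from pre-mRNA on the spliceosome, which assembles anew on each intron from snRNPs and many further proteins. Most of the major snRNPs carry a ring of Sm proteins around their RNA, the SF3A and SF3B complexes anchor the U2 snRNP at the branch point, and the PRPF proteins, named after yeast pre-mRNA processing genes, build and rearrange the U4/U6.U5 tri-snRNP and the catalytic centre. SR proteins and hnRNPs bind exons and introns and steer which splice sites are used. In the zebrafish the egg supplies the first transcripts, and the embryo's own genome becomes widely transcribed around the mid-blastula transition, when many maternal transcripts are also removed.

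Rad21 is a subunit of cohesin, the ring complex that holds DNA strands together and shapes chromatin loops, and CTCF is the zinc finger protein at which cohesin often halts on chromosomes. Rad21 MO embryos received a morpholino, an antisense oligonucleotide, against Rad21, CTCF MO embryos one against CTCF, and the WT embryos of the AB/PS strain are listed with no morpholino, so it is not given whether they were injected. Each group was collected at 5 ages in hours post fertilisation (hpf), which were 2.5 and 3.3 hpf, 4.5 and 5.3 hpf, and 10 hpf, and was staged by eye, with 3 libraries of total RNA depleted of ribosomal RNA from 100 pooled embryos each. The labels do not say that the pools came from separate clutches, so the p-values measure the spread between pools, which may be partly technical.

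The libraries are named here by the numbers 0, 1 and 2 that the authors' table gives them within each group. A library's summed FPKM ran between 676000 and 1820000, and libraries of 1 group correlated across genes with r between 0.967 and 0.986. Read counts were not used here, so the depth is not known; the lowest values showed relative depths that spanned 2.48-fold. For 2 samples the label of age differs from the title, and the title was followed. One is titled Rad21 MO at 3.3 hpf and labelled 4.5 hpf, and the other is titled Rad21 MO at 4.5 hpf and labelled 3.3 hpf. The Rad21 transcript (rad21a) averaged 100.5 ± 10.3 FPKM in Rad21 MO against 143 ± 13.6 FPKM in WT at 4.5 hpf (SD, n = 3 each; adjusted p = 0.0194), and ctcf averaged 237 ± 3.39 FPKM in CTCF MO against 496 ± 22.0 FPKM in WT at 5.3 hpf (adjusted p = 0.000388). Each target was also lower in the other knockdown: ctcf averaged 248 ± 46.0 FPKM in Rad21 MO against 399 ± 46.2 FPKM in WT at 4.5 hpf (adjusted p = 0.0273), 329 ± 4.80 against 496 ± 22.0 FPKM at 5.3 hpf (adjusted p = 0.00148) and 96.0 ± 7.92 against 150.3 ± 6.66 FPKM at 10 hpf (adjusted p = 0.0177), and rad21a averaged 159 ± 2.18 FPKM in CTCF MO against 203 ± 10.4 FPKM in WT at 5.3 hpf (adjusted p = 0.0332). In CTCF MO at 4.5 hpf ctcf averaged 260 ± 55.3 FPKM and did not pass the test (adjusted p = 0.196). At 10 hpf neither target passed the test in its own knockdown, with a log2 change of 0.12 for rad21a and 0.04 for ctcf, and a morpholino need not lower the RNA of its target. At 10 hpf, WT library 0 and CTCF MO libraries 0 and 2 stood apart from their groups by the summed FPKM of 10 p53 target genes, at 2461 in that WT library and at 1931 and 2290 in those CTCF MO libraries; the Rad21 MO libraries were at 2928, 3507 and 3077. All tests below are limma on log2(FPKM + 1) with Benjamini-Hochberg adjustment over all genes tested, and a gene is called when its adjusted p is below 0.05. Fold changes on that scale understate changes of low genes. Most genes named with values below were picked among calls whose libraries did not overlap, so non-overlap stated for them is no further support. Positions are those of the authors' Zv9 table, which does not state whether counting begins at 0 or 1, and copies of near-identical sequence may share reads.

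The members were abundant transcripts in WT embryos. Among SR genes the highest means over the 15 WT libraries were 384 FPKM for srsf1a and 311 FPKM for srsf5a, and the lowest was 19.5 FPKM for srsf2b. Among hnRNP genes hnrnpa0l averaged 1711 FPKM and HNRNPAB (2 of 2) 1012 FPKM, whereas hnrnpa3 averaged 0.53 FPKM. The hnRNP group thus held both the most and the least abundant of the members. Among subunits of the branch point complexes sf3b5 averaged 203 FPKM and sf3b14, whose product contacts the branch point adenosine, 166 FPKM, against 33.1 FPKM for sf3b4. Among PRPF genes prpf8, the scaffold of the catalytic centre, averaged 126 FPKM, prpf31 109.9 FPKM and PRPF3 (1 of 2) 12.6 FPKM. Among snRNP genes the Sm protein genes snrpb and snrpd3 averaged 634 and 385 FPKM, and snrpb2, a U2 snRNP protein, had the lowest mean of 128 FPKM. FPKM is per transcript length, so these levels can be compared between genes.

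On the deposited scale, which the sums and stage counts here use, the members as a group rose steeply in WT embryos between 3.3 and 5.3 hpf. The summed FPKM of all genes rose too, from 816256, 745451 and 748671 in the WT libraries at 3.3 hpf to 1539680, 1453500 and 1386740 at 5.3 hpf. Of these sums the members made up 0.784, 0.877 and 0.875% at 3.3 hpf and 1.21, 1.26 and 1.23% at 5.3 hpf. The members' summed level was 5803 ± 159 FPKM at 2.5 hpf, 6496 ± 86.2 FPKM at 3.3 hpf, 13454 ± 1361 FPKM at 4.5 hpf, 17980.4 ± 765 FPKM at 5.3 hpf and 14134 ± 958 FPKM at 10 hpf (SD, n = 3 each). The highest stage mean fell at 5.3 hpf for 42 members, at 10 hpf for 19, at 4.5 hpf for 3 and at 2.5 hpf for 2. The lowest fell at 2.5 hpf for 47 members. SR genes peaked at 5.3 hpf in 12 of 14 cases and PRPF genes in 10 of 14, while 8 of 20 hnRNP genes and 6 of 11 snRNP genes peaked at 10 hpf. The members with their highest mean at 2.5 hpf were prpf18 and hnrnpc, and those with it at 4.5 hpf were HNRNPUL2, prpf38b and PRPF4 (2 of 2). The flattest course of each class, as the range of its stage means on the log2 scale, was that of SRSF7 (1.17), HNRNPUL2 (0.49), sf3b4 (0.96), PRPF4 (2 of 2) (0.67) and snrpa1 (1.09).

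**Figure D1:**
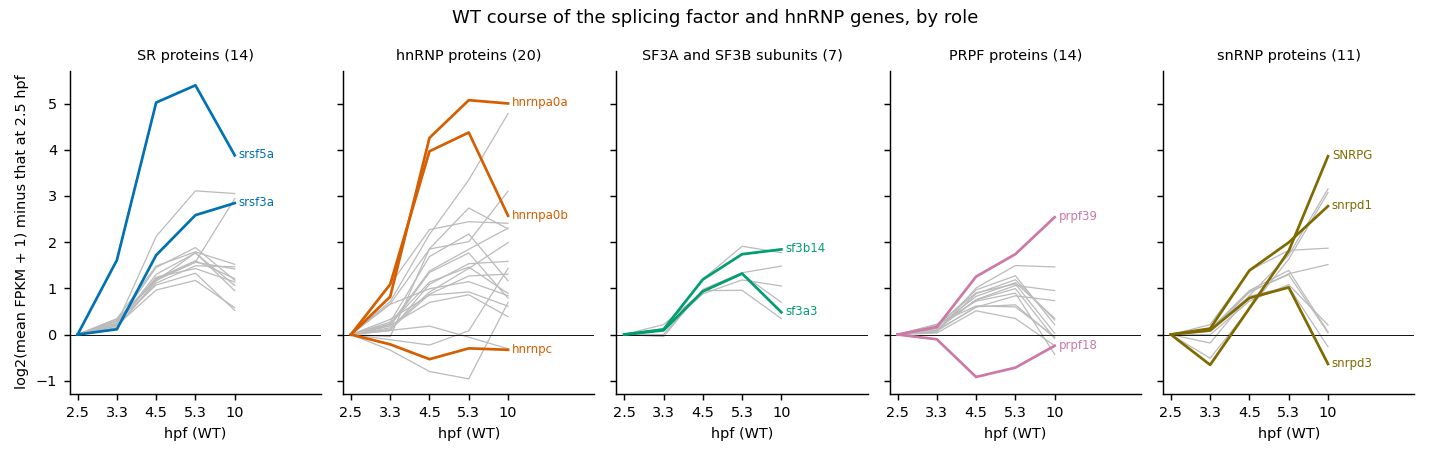
WT course of each member, in 1 panel per protein class, as log2 of the stage mean (FPKM + 1) minus its value at 2.5 hpf, against stage in hpf; each line is 1 gene and the coloured lines carry their names. Most lines climb between 3.3 and 5.3 hpf, hnrnpa0a and srsf5a climb the most of their classes, prpf18 and hnrnpc go below 0, and SNRPG and snrpd3 part between 5.3 and 10 hpf.

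Between 2.5 and 3.3 hpf few members moved. In WT at 3.3 hpf against 2.5 hpf, 5 members were higher and 1 was lower, when 2.06% of all genes tested were higher and 0.402% lower. The gene srsf5a (chromosome 13, 36932095 to 36936994), which encodes an SR protein, had 43.1, 60.1 and 47.0 FPKM at 3.3 hpf, against 15.5, 15.9 and 15.8 FPKM at 2.5 hpf. The groups were apart in every library (log2 change of 1.60, SE 0.26, adjusted p = 0.00245). The other risers encode hnRNPs: hnrnpm (log2 change of 1.11), hnrnpa0b (1.09), hnrnpa0a (0.81) and hnrnpa1 (0.66). SNRPG, the Sm protein gene whose locus runs over chromosome 23 at 34121569 to 34273511, was at 20.8 FPKM at 3.3 hpf and 33.3 FPKM at 2.5 hpf (log2 change of -0.65, adjusted p = 0.0212). Without WT 3.3 hpf library 1, 2 members were called, and the call of SNRPG was lost without 3.3 hpf library 0 or 1 or without 2.5 hpf library 1 or 2.

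In the next interval nearly the whole machinery rose. In WT at 4.5 hpf against 3.3 hpf, 58 of 66 members were higher and 2 lower, with 25.3% of all genes higher and 21.4% lower, and the median change was 0.86 for members and 0.03 for all genes. All 14 SR genes, all 7 SF3 genes and all 11 snRNP genes rose, as did 15 of 20 hnRNP genes and 11 of 14 PRPF genes. The largest rise was that of hnrnpa0a (chromosome 14, 25267555 to 25279621), with 50.5, 70.4 and 51.4 FPKM at 4.5 hpf, against a mean of 4.39 FPKM at 3.3 hpf (log2 change of 3.44, SE 0.16, adjusted p = 2.9e-09). The gene srsf5a had 452, 701 and 474 FPKM at 4.5 hpf, against the 3.3 hpf values above (log2 change of 3.40, SE 0.26, adjusted p = 2.52e-07). By 5.3 hpf its mean was 44.7-fold that at 2.5 hpf. Rises of more than 1 on the log2 scale included those of hnrnpa0b (2.84), hnrnpd, whose product binds AU-rich RNA (1.90), srsf2b (1.89) and srsf3a (1.59). Others were hnrnpa0l (1.41), hnrnpu (1.15), prpf39 (1.09), srsf4 (1.08), sf3b1 (1.07), the branch point subunit gene, and sf3b5 (1.02). This list is not complete. Among snRNP genes, SNRPG averaged 49.9 FPKM at 4.5 hpf against 20.8 FPKM at 3.3 hpf, and snrpd1 210 against 87.4 FPKM. The tri-snRNP gene prpf31 rose by 0.80, and the U2 snRNP genes snrpa1 and snrpb2 by 0.73 each.

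The members called lower were prpf18 and hnrnpc. The gene prpf18 (chromosome 18, 7866731 to 7873121), whose product acts in the second catalytic step in yeast, had 19.4, 18.8 and 21.8 FPKM at 4.5 hpf, against 34.4, 38.7 and 34.8 FPKM at 3.3 hpf (log2 change of -0.82, SE 0.09, adjusted p = 6.87e-06). The gene hnrnpc (chromosome 2, 37727932 to 37738032) encodes an hnRNP that in human cells packages nascent transcripts by binding uridine-rich tracts. It had 142, 161 and 143 FPKM at 4.5 hpf, against 198, 168 and 192 FPKM at 3.3 hpf. These groups did not overlap (log2 change of -0.32, SE 0.11, adjusted p = 0.0242), but the call was lost without 4.5 hpf library 0 or 2 or without 3.3 hpf library 0 or 2, with an adjusted p of up to 0.092. When every library was rescaled to the same summed FPKM, the median of all genes moved to -0.38 and that of the members to 0.30, with 27 members higher and 4 lower (12.8% and 42.2% of all genes). Quantile normalisation gave 45 higher and 2 lower (20.4% and 25% of all genes).

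Between 4.5 and 5.3 hpf the rise went on for part of the members. In WT at 5.3 hpf against 4.5 hpf, 34 members were higher and 0 lower, with 14.1% of all genes higher and 10.2% lower. All 34 had also risen in the interval before, as had 58 of all 66 members. That overlap was not counted over all genes. The largest rise was that of SNRPG, which had 125, 134 and 98.2 FPKM at 5.3 hpf, against 45.7, 54.7 and 49.4 FPKM at 4.5 hpf (log2 change of 1.23, adjusted p = 0.00026), and snrpd2 averaged 193 FPKM at 5.3 hpf and 91.2 FPKM at 4.5 hpf (1.09, adjusted p = 0.000846). The SR gene srsf2b had 36.9, 41.2 and 31.9 FPKM at 5.3 hpf, against 14.8, 21.9 and 17.3 FPKM at 4.5 hpf, again with no overlap (adjusted p = 0.00265). The gene hnrnpul1 rose by 1.19, hnrnpd by 0.88, snrpe by 0.87, srsf3a by 0.86, sf3b1 by 0.71, sf3b14 by 0.55, hnrnpk by 0.51, prpf39 by 0.49 and prpf31 by 0.30. This interval depended on the scale: rescaled to 1 summed FPKM, 7 members were higher and 2 lower (4.98% and 21% of all genes), with medians of 0.05 for members and -0.20 for all genes, prpf31 turned to -0.02, and quantile normalisation called 8 higher and 1 lower (9.74% and 11.1%). Without WT 4.5 hpf library 0 the count was 21 members, and without library 2 it was 22.

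Between 5.3 and 10 hpf the members parted. In WT at 10 hpf against 5.3 hpf, 13 were higher and 33 lower, with 37.7% of all genes higher and 31.2% lower; the median was -0.28 for members and 0.07 for all genes. Of the 34 members that had risen into 5.3 hpf, 14 now fell, beside 33 of all 66 members. This overlap was not counted over all genes, and both comparisons use the WT libraries of 5.3 hpf. Among SR genes 1 rose and 9 fell, among hnRNP genes 6 rose and 8 fell, among SF3 genes 3 fell, among PRPF genes 2 rose and 8 fell, and among snRNP genes 4 rose and 5 fell.

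The Sm protein genes went in both directions. SNRPG had 472, 509 and 511 FPKM at 10 hpf, against 125, 134 and 98.2 FPKM at 5.3 hpf (log2 change of 2.06, SE 0.14, adjusted p = 1.61e-08), and snrpe (1.47), snrpd2 (1.45) and snrpd1 (0.72) also rose. The Sm protein gene snrpd3 (chromosome 8, 31590939 to 31593640) had 245, 169 and 159 FPKM at 10 hpf, against 638, 588 and 588 FPKM at 5.3 hpf (log2 change of -1.68, adjusted p = 7.76e-08). Both pairs of groups were fully apart. All 4 genes of proteins that belong to a single snRNP fell: snrpa (-1.38) and snrpc (-1.27) of the U1 snRNP, and snrpa1 (-0.88) and snrpb2 (-1.30, adjusted p = 5.99e-09) of the U2 snRNP. Among the regulators, hnrnpa0b fell by 1.79 and srsf5a by 1.61, with 134, 279 and 323 FPKM of srsf5a at 10 hpf, against 664, 748 and 696 FPKM at 5.3 hpf. Further falls were those of prpf4ba, a kinase gene (-1.35), prpf31 (-1.06), hnrnpu (-0.98), prpf38a (-0.87), sf3a3 (-0.84), srsf6a (-0.81), srsf4 (-0.71) and SF3B2 (-0.61). Rises were measured for HNRNPH3 (1.63), hnrnpul1 (1.44), srsf5b (1.28), prpf39 (0.80) and hnrnpk (0.56). At 10 hpf the WT library 0, with its high p53 target sum, had the lowest srsf5a value. It also had the lowest srsf5b value (61.6 FPKM, against 134 and 145 FPKM in the others). Its snrpd1 value was by far the highest of the group, as listed below beside CTCF MO. The part of that library's difference in these results was not tested.

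Close copies did not share 1 course. Of 9 pairs compared, whose symbols differ by a closing a or b or by an added l, 2 changed their order in WT between 2.5 and 10 hpf. Copies marked 1 of 2 or 2 of 2 were not among these pairs, and the count does not cover them. For example, hnrnpul1 averaged 6.27 FPKM and HNRNPUL1 (1 of 2) 41.4 FPKM in WT at 2.5 hpf. By 10 hpf their means were 31.8-fold and 2.51-fold those levels, so that their order changed too. At 10 hpf srsf3a averaged 386 FPKM and srsf3b 286 FPKM in WT, a log2 ratio of 0.49 ± 0.60 (SD, n = 3) that ran between 0.14 and 1.18, whereas at 2.5 hpf srsf3a averaged 52.9 FPKM and srsf3b 148 FPKM, a ratio of -1.47 ± 0.10. The Sm gene snrpd3 averaged 191 FPKM and its copy snrpd3l 404 FPKM at 10 hpf (log2 ratio -1.04 ± 0.17), whereas at 2.5 hpf they averaged 298 and 109.7 FPKM (1.44 ± 0.24). Both orders thus differed between the stages in every WT library. At 10 hpf the srsf3a to srsf3b ratio was 0.28 ± 0.06 in Rad21 MO, 0.73 ± 0.45 in CTCF MO and 0.49 ± 0.60 in WT, and the snrpd3 to snrpd3l ratio was -0.44 ± 0.09 in Rad21 MO, -0.93 ± 0.10 in CTCF MO and -1.04 ± 0.17 in WT. The most unequal of the 9 pairs at 10 hpf was hnrnph1, with 2.48, 5.04 and 3.69 FPKM in WT, beside hnrnph1l, with 293, 314 and 311 FPKM (log2 ratio -6.05). The neighbours hnrnpa0b and hnrnpa0l lie 1333 bases apart on chromosome 14.

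**Figure D2:**
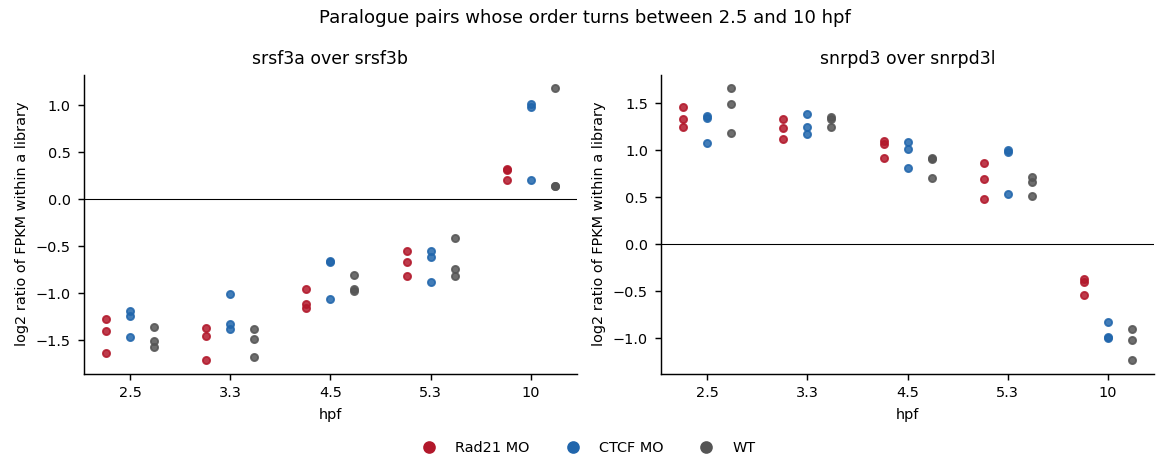
Log2 ratio of FPKM of srsf3a to srsf3b and of snrpd3 to snrpd3l in each library, by stage in hpf, with Rad21 MO, CTCF MO and WT side by side; each point is 1 library. In WT the first ratio is above 0 at 10 hpf and below 0 at 2.5 hpf, and the second is the opposite.

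In the knockdowns no member was called at the 2 earliest stages. Rad21 MO against WT gave 0 calls by limma at 2.5 hpf (0% of all genes in either direction) and 0 at 3.3 hpf (0.164% higher and 0.00712% lower), with 1 and 4 members at an unadjusted p below 0.05 (4% and 7.94% of all genes). CTCF MO against WT likewise gave 0 calls at 2.5 hpf (0% in either direction) and at 3.3 hpf (0.0498% higher and 0.00712% lower), with 6 and 12 members at an unadjusted p below 0.05 (8.39% and 11.1% of all genes). The summed member level was 5746 ± 77.7 FPKM in Rad21 MO, 5498 ± 322 FPKM in CTCF MO and 5803 ± 159 FPKM in WT at 2.5 hpf, and 6552 ± 215, 5934 ± 475 and 6496 ± 86.2 FPKM in the same groups at 3.3 hpf.

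At 4.5 hpf, the splicing genes were broadly lower in Rad21 MO embryos, and hnrnpc was the 1 member called higher. HNRNPH3 (log2 change of 0.48) and prpf18 (0.38) were also above WT but were not called. Of 65 members tested, 44 were lower and 1 higher in Rad21 MO against WT, with 10.1% of all genes lower and 10.6% higher. The median change was -0.57 for members and -0.07 for all genes, and 62 members had a change below 0, as did 55.6% of all genes. The 3 Rad21 MO and the 3 WT libraries did not overlap for 52 members, and for 40.6% of all genes. Lower calls covered 13 of 14 SR genes, 9 of 19 hnRNP genes, 5 of 7 SF3 genes, 9 of 14 PRPF genes and 8 of 11 snRNP genes. The members summed to 9026 ± 801 FPKM in Rad21 MO and 13454 ± 1361 FPKM in WT.

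The lower calls of SR, hnRNP and PRPF genes given next are on the deposited scale. After rescaling, only prpf39 was still called lower, as given below. The SR gene srsf1a (chromosome 15, 15091094 to 15095533), whose human counterpart binds exonic enhancers, had 254, 307 and 259 FPKM in Rad21 MO, against 414, 487 and 450.0 FPKM in WT (log2 change of -0.72, SE 0.12, adjusted p = 0.0059). The gene hnrnpk (chromosome 8, 52006516 to 52027085), which encodes a binder of C-rich RNA, had 96.2, 113 and 93.9 FPKM in Rad21 MO, against 170.5, 171 and 151 FPKM in WT (-0.70, SE 0.11, adjusted p = 0.00482). All Rad21 MO libraries lay below all WT libraries for both genes. The gene prpf39 (chromosome 20, 54605390 to 54635746), which encodes a protein that joins the U1 snRNP in yeast, had 38.3, 41.7 and 42.7 FPKM in Rad21 MO, against 73.5, 80.7 and 63.7 FPKM in WT (-0.81, SE 0.13, adjusted p = 0.00519). For hnrnpa0a the values were 24.1, 34.0 and 29.8 FPKM in Rad21 MO, against 50.5, 70.4 and 51.4 FPKM in WT (-0.95, SE 0.21, adjusted p = 0.0159). Again no library of 1 group reached into the other.

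The snRNP genes were lowered across different particles. The U1 snRNP gene snrpc (chromosome 6, 54385570 to 54391060) had 235, 256 and 246 FPKM in Rad21 MO, against 368, 419 and 391 FPKM in WT (log2 change of -0.67, SE 0.10, adjusted p = 0.00478). The Sm gene snrpd1 (chromosome 19, 1996198 to 2001151) had 124, 123 and 105 FPKM in Rad21 MO, against 185, 241 and 205 FPKM in WT (-0.83, SE 0.20, adjusted p = 0.0184). The branch point subunit genes SF3B2 (chromosome 7, 7561473 to 7605901) and sf3a3 (chromosome 19, 16724547 to 16737186) were at -0.68 and -0.65, with SF3B2 at 88.1, 88.0 and 87.1 FPKM in Rad21 MO, against 132, 163 and 130.2 FPKM in WT. Further lower calls were hnrnpa0l (-0.72), srsf5b (-0.71), srsf4 (-0.64), snrpa (-0.64) and prpf31 (-0.58). The calls of hnrnpa0a, snrpd1 and srsf5b were each lost without Rad21 MO library 0 or without WT library 1, that of snrpd1 also without Rad21 MO library 2, and that of srsf5b also without WT library 2.

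In contrast, hnrnpc had 257, 281 and 248 FPKM in Rad21 MO at 4.5 hpf, against 142, 161 and 143 FPKM in WT (log2 change of 0.81, SE 0.13, adjusted p = 0.00482). It kept its call in all 11 alternative fits, with log2 changes between 0.76 and 1.21 and adjusted p values between 9.62e-06 and 0.0234. At 2.5 and 3.3 hpf the Rad21 MO libraries also lay above those of WT in hnrnpc, but neither difference was called. They were at 229.5 to 257 FPKM at 2.5 hpf and 229.8 to 258 FPKM at 3.3 hpf, against 209 to 228.6 and 168 to 198 FPKM in WT. At 10 hpf, as given below, the groups overlapped. In WT it was lower at 4.5 hpf than at 3.3 hpf, as given above, and the Rad21 MO libraries of 4.5 hpf lay between 248 and 281 FPKM.

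The lower calls in Rad21 MO depended on the scale and on single libraries. The summed FPKM of the libraries was 837085, 880947 and 1102440 in Rad21 MO and 1171510, 1207930 and 1111850 in WT at 4.5 hpf, and after rescaling to 1 sum, 1 member was lower (prpf39, adjusted p = 0.0426) and 1 higher (hnrnpc), with 0.502% of all genes lower and 13.3% higher and medians of -0.26 for members and 0.19 for all genes. Quantile normalisation gave 13 lower and 1 higher (4.91% and 8.66% of all genes), with medians of -0.27 and -0.07. Relative to the median of all genes, the members' median was thus at -0.50 as deposited, -0.45 rescaled and -0.20 after quantile normalisation. As deposited, the members made up 1.01, 1.13 and 0.787% of the summed FPKM in Rad21 MO, against 1.07, 1.24 and 1.15% in WT, which overlap. Without Rad21 MO library 0, Rad21 MO library 2 or WT library 1, 20, 24 and 20 members were called.

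**Figure D3:**
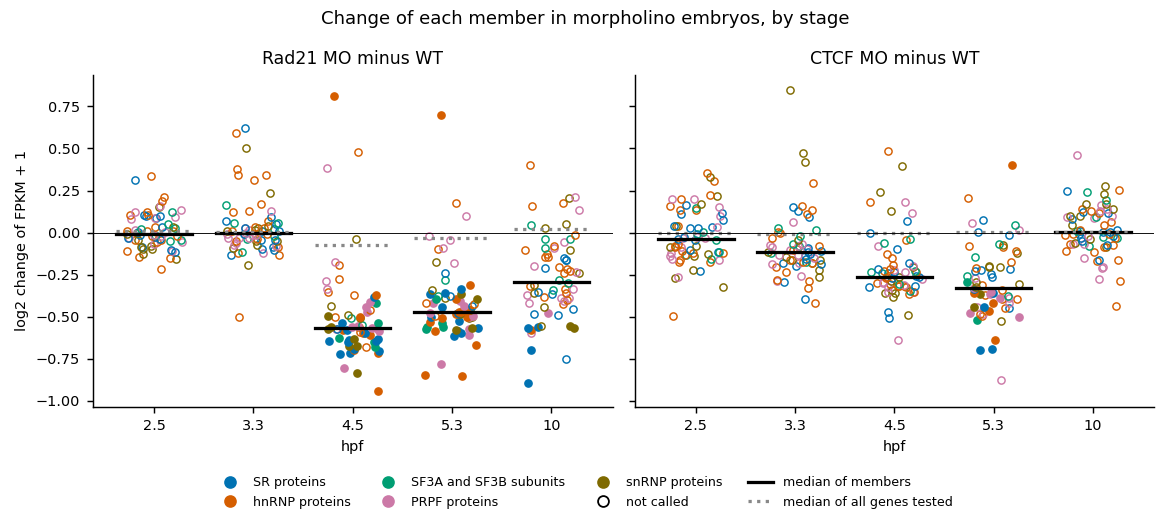
Log2 change of each member against WT on the log2(FPKM + 1) scale, by stage in hpf, with Rad21 MO in the left and CTCF MO in the right panel; filled points passed the test, the black line is the median of the members and the dotted line that of all genes tested. The member median drops below the all-gene line at 4.5 and 5.3 hpf in both panels, where 44 and 46 members were called lower in Rad21 MO, and 0 and 18 members in CTCF MO.

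Other transcripts differed at the same stage. At 4.5 hpf the summed level of 4 maternal transcripts ran between 421 and 621 FPKM in Rad21 MO and between 160.2 and 204 FPKM in WT, and that of 5 early zygotic transcripts between 461 and 526 FPKM in Rad21 MO and between 757 and 954 FPKM in WT. The 4 primordial germ cell markers found in the table summed to 368 to 462 FPKM in Rad21 MO and to 155 to 181 FPKM in WT. In WT these markers fell from 594 to 644 FPKM at 2.5 hpf to 12.3 to 23.2 FPKM at 10 hpf. The maternal transcripts likewise fell there, from 844 to 920 FPKM to 9.25 to 14.8 FPKM. The number of germ cells was not measured. The 5 enveloping layer markers summed to 771 to 1150 FPKM in Rad21 MO and to 1270 to 2040 FPKM in WT at 4.5 hpf. Of 5 yolk syncytial layer markers, 3 were under 1 FPKM in Rad21 MO and 2 in WT, and the sums overlapped. All 6 markers of ovarian somatic cells and all 6 of later tissues were under 1 FPKM in both groups. The 10 p53 targets summed to 566 to 580 FPKM in Rad21 MO and to 820 to 906 FPKM in WT. The part of these differences in the splicing gene results was not tested, and in pooled whole embryos fewer cells of a type and less RNA per cell cannot be told apart.

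At 5.3 hpf most splicing genes were again lower in Rad21 MO embryos and hnrnpc was again higher. Of 65 members, 46 were lower and 1 higher, with 9.9% of all genes lower and 12.2% higher; the median was -0.47 for members and -0.03 for all genes. Changes below 0 were found in 62 members and 52.4% of all genes, and 53 members had groups that did not overlap, as did 41.2% of all genes. Of the 44 genes lower at 4.5 hpf, 40 were lower again, which is 90.9% of the earlier calls and 87% of the later ones. Such an overlap was not counted over all genes, and 46 of all 65 members were lower at 5.3 hpf. It is therefore no result particular to the members. By class, 11 SR, 13 hnRNP, 5 SF3, 9 PRPF and 8 snRNP genes were lower.

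The largest fall at 5.3 hpf was shared by hnrnpk and hnrnpa0a. The gene hnrnpk had 129.8, 118 and 141 FPKM in Rad21 MO, against 245, 244 and 215 FPKM in WT (log2 change of -0.85, SE 0.11, adjusted p = 0.00161). For hnrnpa0a there were 52.1, 66.0 and 50.3 FPKM in Rad21 MO, against 118, 102 and 86.1 FPKM in WT (-0.85, SE 0.16, adjusted p = 0.00734). The gene prpf39 had 57.6, 58.7 and 60.3 FPKM in Rad21 MO, against 110.2, 96.9 and 99.2 FPKM in WT (-0.78, SE 0.08, adjusted p = 0.000774). In these genes the WT libraries were all higher than the Rad21 MO libraries. The gene srsf1a had 392, 367 and 394 FPKM in Rad21 MO, against 609, 604 and 553 FPKM in WT (-0.61, SE 0.09, adjusted p = 0.00248). Further lower calls included hnrnpm (-0.67), PRPF3 (1 of 2) (-0.61), SF3B2 (-0.58), snrpa (-0.58), snrpd1 (-0.57), sf3b1 (-0.56), srsf4 (-0.50) and prpf31 (-0.48).

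The gene hnrnpc again stood on the other side, with 286, 266 and 302 FPKM in Rad21 MO, against 166, 173 and 187 FPKM in WT (log2 change of 0.70, SE 0.09, adjusted p = 0.00127). On the deposited scale, the highest of the 15 WT libraries of any stage had 228.6 FPKM, at 2.5 hpf. All 3 Rad21 MO libraries were above it at each of 2.5, 3.3, 4.5 and 5.3 hpf, at 2.5 hpf with as little as 229.5 FPKM. The same held for 2, 1, 1 and 1 of the CTCF MO libraries at these stages. Summed FPKM was 713734 to 815274 in WT at 2.5 hpf and 1037050 to 1265210 in Rad21 MO at 5.3 hpf. This comparison across stages was made on the deposited scale only. At 5.3 hpf, after rescaling to 1 summed FPKM, 2 members were lower and 2 higher (0.74% and 24.2% of all genes), the lower ones being prpf39 (-0.43) and hnrnpk (-0.50). Quantile normalisation gave 14 lower and 1 higher (6.3% and 9.94%). Relative to all genes the members' median was at -0.44 as deposited, -0.38 rescaled and -0.11 after quantile normalisation. The members' share of the summed FPKM was 1.18, 1.21 and 1.07% in Rad21 MO and 1.21, 1.26 and 1.23% in WT. Without Rad21 MO library 1, 28 members were called, and without WT library 0, 27. The marker sums differed here too: at 5.3 hpf the primordial germ cell transcripts summed to 269 to 310 FPKM in Rad21 MO and 99.4 to 123 FPKM in WT, the maternal transcripts to 271 to 375 FPKM in Rad21 MO and 106 to 127 FPKM in WT, and the early zygotic transcripts to 629 to 740 FPKM in Rad21 MO and 824 to 1010 FPKM in WT. The p53 targets summed to 762 to 827 FPKM in Rad21 MO and 1040 to 1180 FPKM in WT, and the enveloping layer sums overlapped. The part of these differences was not tested.

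**Figure D4:**
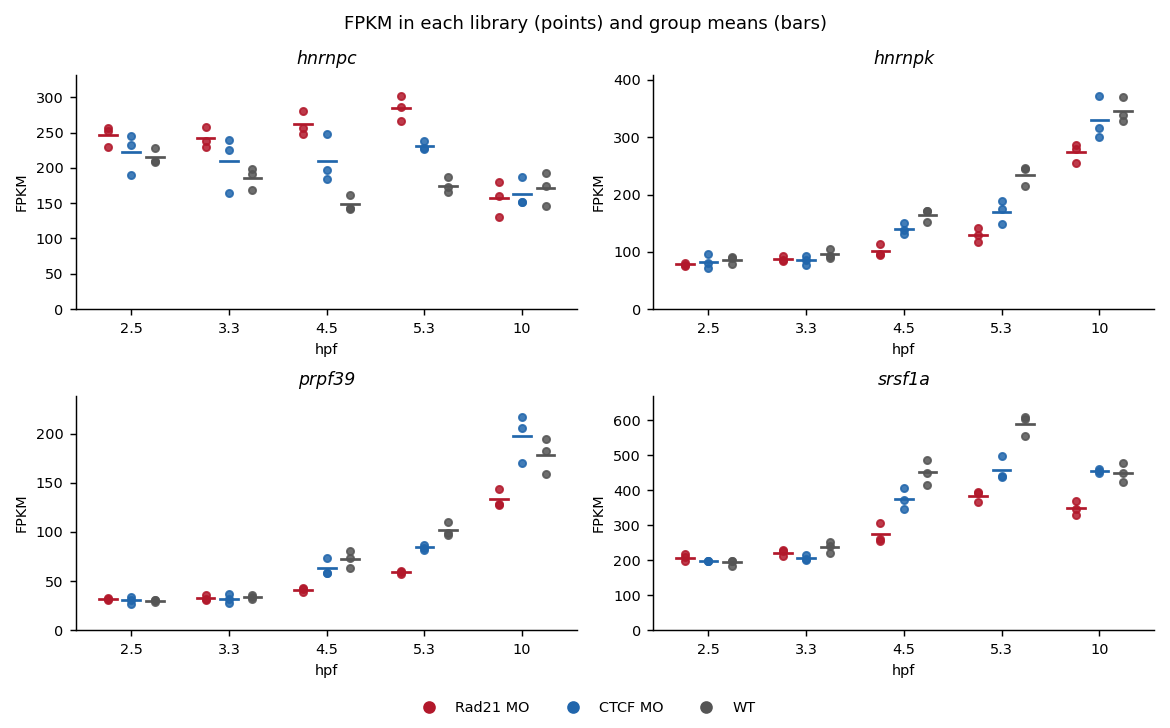
FPKM of hnrnpc, hnrnpk, prpf39 and srsf1a in every library by stage in hpf, with Rad21 MO, CTCF MO and WT side by side; points are libraries and the short bars are group means. For hnrnpc, on the deposited scale, the Rad21 MO points of 2.5, 3.3, 4.5 and 5.3 hpf lie above all WT points. For the other 3 genes the Rad21 MO points of 4.5 and 5.3 hpf lie below the WT points of their stage.

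At 10 hpf the members called lower in Rad21 MO were 4 SR genes, 2 snRNP genes, 1 hnRNP gene and 1 PRPF gene. Of 66 tested, 8 were lower and 0 higher, with 2.44% of all genes lower and 0.789% higher; the median was -0.29 for members and 0.02 for all genes, and 57 members had a change below 0 (47.5% of all genes). Groups did not overlap for 35 members and for 26.3% of all genes. The SR gene srsf6b (chromosome 11, 1487398 to 1496137) had 36.3, 26.6 and 26.0 FPKM in Rad21 MO, against 59.2, 58.0 and 49.6 FPKM in WT (log2 change of -0.90, SE 0.18, adjusted p = 0.0342). The SR gene srsf3a (chromosome 6, 41010866 to 41016321) had 262, 225 and 228 FPKM in Rad21 MO, against 417, 363 and 379 FPKM in WT (-0.70, SE 0.11, adjusted p = 0.0191). The gene hnrnph1l (chromosome 21, 28913670 to 28925825), whose human counterpart binds runs of G, had 218, 188 and 206 FPKM in Rad21 MO, against 293, 314 and 311 FPKM in WT (-0.58, SE 0.09, adjusted p = 0.0185).

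In all 3 genes the groups were apart. The others were srsf6a (-0.57), SRSF7 (-0.56), the U2 snRNP genes snrpa1 (-0.56) and snrpb2 (-0.56), and PRPF6 (1 of 2), which encodes a tri-snRNP bridging protein (-0.48). All 8 had also been lower at 4.5 hpf and 6 of them at 5.3 hpf, when 44 and 46 members were lower. This overlap was not counted over all genes either. The difference in hnrnpc was not called at 10 hpf, with 131, 179.6 and 161 FPKM in Rad21 MO, against 193, 146 and 174 FPKM in WT. These calls were fragile: 0 members were called without Rad21 MO library 1, without Rad21 MO library 2, without WT library 1 or without WT library 2, 4 without Rad21 MO library 0 and 7 without WT library 0, the library with the high p53 target sum. After rescaling, 0 were called (0.486% of all genes lower and 0.0985% higher). The summed p53 targets differed between the groups as given above, and the part of that difference was not tested.

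In CTCF MO embryos members passed the test at 5.3 hpf; the difference between the stages was not tested. At 4.5 hpf there were 0 calls by limma (0.00671% of all genes higher and 0% lower), although 19 members had an unadjusted p below 0.05 (15.2% of all genes) and 57 of 65 had a change below 0 (50.6% of all genes); the median was -0.26. The fit of all 45 libraries, which shares the spread over all groups, called 9 members lower and 1 higher at this stage (1.81% and 3.26% of all genes). The members summed to 11232 ± 1499 FPKM in CTCF MO and 13454 ± 1361 FPKM in WT. For hnrnpc there were 248, 185 and 197 FPKM in CTCF MO and 142, 161 and 143 FPKM in WT, with a log2 difference of 0.49 that missed the threshold (adjusted p = 0.169).

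At 5.3 hpf 18 of 65 members were lower and 1 higher in CTCF MO, with 3.87% of all genes lower and 5.07% higher. The median was -0.33 for members and 0.00 for all genes, 58 members had a change below 0 (49.7% of all genes), and groups did not overlap for 40 members (27.9% of all genes). The summed level was 14212 ± 594 FPKM in CTCF MO and 17980.4 ± 765 FPKM in WT. The SR gene pair srsf5a and srsf5b had the largest falls among the calls. The gene srsf5a had 428, 401 and 476 FPKM in CTCF MO, against 664, 748 and 696 FPKM in WT (log2 change of -0.69, SE 0.10, adjusted p = 0.0048), a call it kept in all 11 alternative fits. The gene srsf5b (chromosome 20, 28895876 to 28910737) had 23.4, 28.9 and 26.9 FPKM in CTCF MO, against 48.2, 43.3 and 38.7 FPKM in WT (-0.70, SE 0.13, adjusted p = 0.0125). All CTCF MO values of both genes were below all WT values.

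Further lower calls were hnrnpa0a (-0.64), with 60.4, 56.7 and 78.7 FPKM in CTCF MO against 118, 102 and 86.1 FPKM in WT, sf3a3 (-0.52), PRPF6 (1 of 2) (-0.50), prpf38a (-0.48), snrpb2 (-0.44), HNRNPU (2 of 2) (-0.42), snrpc (-0.37) and SF3B2 (-0.30). The 1 member called higher was hnrnpc, with 239, 227 and 228 FPKM in CTCF MO, against 166, 173 and 187 FPKM in WT (log2 change of 0.40, SE 0.09, adjusted p = 0.023). The groups were apart, but the call was lost without CTCF MO library 0 or 1 or without WT library 0 or 1, with an adjusted p of up to 0.0843. The summed FPKM was 1236930, 1230600 and 1175680 in CTCF MO and 1539680, 1453500 and 1386740 in WT. After rescaling to 1 sum, 2 members were lower and 2 higher (0.61% and 11.7% of all genes), with medians of -0.07 for members and 0.22 for all genes, and quantile normalisation gave 3 lower and 1 higher (2.13% and 3.94%). Relative to all genes the median was at -0.33, -0.29 and -0.07 on these 3 scales. Without CTCF MO library 0 or 1, 5 and 2 members were called, and without WT library 0 or 1, 3 and 4; the call of hnrnpa0a was lost in each of these fits, and those of snrpc and SF3B2 in these and others.

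Of the markers counted at 4.5 hpf, the primordial germ cell transcripts summed to 219 to 334 FPKM in CTCF MO and 99.4 to 123 FPKM in WT at 5.3 hpf, and the maternal transcripts to 151 to 200 FPKM in CTCF MO and 106 to 127 FPKM in WT. The early zygotic transcripts summed to 608 to 797 FPKM in CTCF MO and 824 to 1010 FPKM in WT, again without overlap, whereas the enveloping layer sums overlapped. Their part in the result was not tested. At 10 hpf 0 members were called in CTCF MO (0.00607% of all genes higher and 0.0121% lower), 1 had an unadjusted p below 0.05 (3.89% of all genes), and the median was 0.00. Values of snrpd1 ran wide there, with 722, 385 and 744 FPKM in CTCF MO and 818, 410.3 and 433 FPKM in WT. The high values of snrpd1 were those of the libraries with high p53 target sums in both groups.

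The knockdowns were also compared with each other. The comparisons above share their WT libraries, so their similarity is not given as a result. At 4.5 hpf 2 members were lower and 0 higher in Rad21 MO against CTCF MO, with 1.25% of all genes lower and 1.51% higher. The gene srsf2b (chromosome 3, 61210085 to 61218342) had 10.5, 10.6 and 10.4 FPKM in Rad21 MO, against 17.7, 17.9 and 17.6 FPKM in CTCF MO (log2 difference -0.70, adjusted p = 0.0444). The gene prpf39 had 38.3, 41.7 and 42.7 FPKM in Rad21 MO, against 58.1, 73.5 and 58.5 FPKM in CTCF MO (-0.61, adjusted p = 0.044). The groups were apart for both. At 5.3 hpf 1 member was lower and 0 higher (1.75% of all genes lower and 2.75% higher), again prpf39, with 57.6, 58.7 and 60.3 FPKM in Rad21 MO, against 81.9, 83.7 and 87.1 FPKM in CTCF MO (-0.51, adjusted p = 0.0185). At 4.5 hpf the count was 0 without any 1 of the Rad21 MO libraries or without CTCF MO library 1 or 2, and 5 without CTCF MO library 0. At 5.3 hpf it was 0 without any 1 of the Rad21 MO libraries or without CTCF MO library 1. After rescaling to 1 summed FPKM, 0 members were called at 4.5 hpf (0.108% of all genes lower and 0.929% higher). At 5.3 hpf 0 were called too (0.727% and 2.8%). As deposited, the counts of members called at 4.5 and 5.3 hpf were near the share of all genes called in either direction.

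At 10 hpf 10 members were lower and 0 higher in Rad21 MO against CTCF MO (2.54% of all genes lower and 0.843% higher). They were 4 SR, 2 hnRNP, 1 PRPF and 3 snRNP genes. The gene srsf3a had 262, 225 and 228 FPKM in Rad21 MO, against 499, 407 and 472 FPKM in CTCF MO (-0.94, adjusted p = 0.0064), and srsf6b 36.3, 26.6 and 26.0 FPKM in Rad21 MO, against 77.5, 54.3 and 52.6 FPKM in CTCF MO (-1.02, adjusted p = 0.0247). For prpf39 there were 144, 127 and 129 FPKM in Rad21 MO and 217, 170.2 and 205 FPKM in CTCF MO (-0.56, adjusted p = 0.0438). In each of these genes every Rad21 MO library was below every CTCF MO library. The CTCF MO library with a low p53 target sum, library 1, had the lowest srsf3a and prpf39 values of its group, and without it 8 members were called; without CTCF MO library 0 or 2 the count was 2 in either case, and without Rad21 MO library 0, 1 or 2 it was 4, 1 and 1. After rescaling, 0 members were called at 10 hpf (0.807% of all genes lower and 0.203% higher).

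The changes in the knockdowns at 4.5 hpf were set beside the WT course between 3.3 and 5.3 hpf. Of the 61 members whose WT mean was higher at 5.3 than at 3.3 hpf, 61 were below WT in Rad21 MO at 4.5 hpf and 56 in CTCF MO; among the other genes with a higher WT mean at 5.3 hpf the shares were 83.4% for Rad21 MO and 63.9% for CTCF MO. The count for Rad21 MO largely restates that 62 of 65 members were below WT. Of the 4 with a lower WT mean at 5.3 hpf (HNRNPH3, HNRNPUL2, prpf18 and hnrnpc), 3 were above WT in Rad21 MO, all but HNRNPUL2, and 3 in CTCF MO, all but HNRNPH3, with shares of 74.3% and 63.8% among the other genes that were lower. All 44 members called lower in Rad21 MO had a mean above that of WT at 3.3 hpf, and so between those of WT at 3.3 and 4.5 hpf, as did 75.4% of the other genes called lower. These counts are a description, given without a test.

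As a measure over 6353 genes that are no members, each library was placed on the line between the WT means at 3.3 hpf (0) and 5.3 hpf (1). At 3.3 hpf the Rad21 MO libraries were at 0.0429 to 0.0927, the CTCF MO libraries at 0.0447 to 0.0719 and the WT libraries at -0.0179 to 0.0133. At 4.5 hpf the Rad21 MO libraries were at 0.398 to 0.518, the CTCF MO libraries at 0.538 to 0.714 and the WT libraries at 0.628 to 0.767. At 5.3 hpf they were at 0.768 to 0.782 in Rad21 MO, 0.817 to 0.909 in CTCF MO and 0.934 to 1.04 in WT. On this line both knockdowns thus lay above WT without overlap at 3.3 hpf and below it without overlap at 5.3 hpf. At 4.5 hpf Rad21 MO lay below WT without overlap while CTCF MO overlapped it. The WT libraries of 3.3 and 5.3 hpf also set the ends of the line. No Rad21 MO library of 3.3 or 4.5 hpf lay among those of the other stage. A second line, over 8622 genes, ran from the WT means at 4.5 hpf (0) to those at 10 hpf (1). On it the libraries of 5.3 hpf were at 0.0997 to 0.129 in Rad21 MO, 0.134 to 0.182 in CTCF MO and 0.0983 to 0.165 in WT. Both knockdowns thus overlapped WT there. At 4.5 hpf they were at 0.00716 to 0.0148, 0.026 to 0.0574 and -0.0178 to 0.0171 in the same groups. CTCF MO thus lay above WT without overlap, and Rad21 MO overlapped WT. Embryos were staged by eye, and a difference in developmental stage and an effect of the knockdown at the same stage cannot be told apart in these values.

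**Figure D5:**
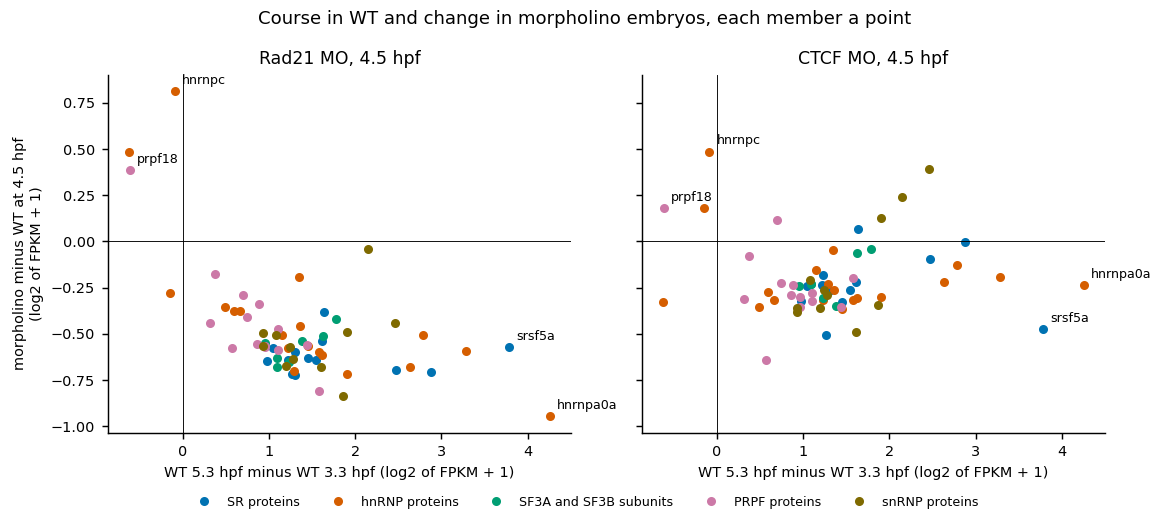
Each member's WT change between 3.3 and 5.3 hpf (horizontal, log2 of FPKM + 1) against its change in the knockdown relative to WT at 4.5 hpf (vertical, same scale), with Rad21 MO left and CTCF MO right; each point is 1 gene. Members to the right of 0 lie below the horizontal line in 61 of 61 cases for Rad21 MO and 56 of 61 for CTCF MO, and hnrnpc lies at the upper left.

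Other genes of the pathway were counted from lists. Of 60 further spliceosome genes tested, 49 were higher and 2 lower in WT at 4.5 hpf against 3.3 hpf, when 25.3% of all genes were higher and 21.4% lower; rescaled to 1 summed FPKM, 12 were higher and 6 lower (12.8% and 42.2% of all genes). In Rad21 MO against WT at 4.5 hpf 35 were lower and 1 higher (median -0.50; 10.1% and 10.6% of all genes), at 5.3 hpf 41 were lower and 1 higher (-0.45; 9.9% and 12.2%), and in CTCF MO at 5.3 hpf 21 were lower and 1 higher (-0.32; 3.87% and 5.07%). After rescaling the lower calls were 1, 1 and 1 in these 3 comparisons, with 0.502%, 0.74% and 0.61% of all genes lower. The higher calls were then 1, 2 and 1, with 13.3%, 24.2% and 11.7% of all genes higher. After quantile normalisation 13, 20 and 4 were lower (4.91%, 6.3% and 2.13% of all genes) and 1, 1 and 1 higher (8.66%, 9.94% and 3.94%). The RNA helicase gene ddx39aa averaged 174 ± 17.1 FPKM in Rad21 MO and 350.4 ± 21.7 FPKM in WT at 4.5 hpf (log2 change of -1.01, adjusted p = 0.00163). The 1 gene called higher was lsm4, whose product is part of the ring that binds U6 snRNA, at 82.4 ± 3.96 FPKM in Rad21 MO and 39.8 ± 3.90 FPKM in WT (1.04, adjusted p = 0.00376). Of 32 regulators of splicing, 15 were lower and 0 higher in Rad21 MO at 4.5 hpf (median -0.42), 17 lower at 5.3 hpf, and 9 lower in CTCF MO at 5.3 hpf, beside the same shares of all genes. Rescaling gave 4, 7 and 1 of them lower and 0, 4 and 1 higher. Quantile normalisation gave 7, 10 and 4 lower and 0, 1 and 0 higher. The shares of all genes on these scales are those given above for the spliceosome genes. Of the regulators, rbmx averaged 115 FPKM in Rad21 MO and 267 FPKM in WT at 4.5 hpf (-1.21, adjusted p = 0.00357).

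Of 8 genes that assemble snRNPs, 3 were higher and 4 lower in WT at 4.5 hpf against 3.3 hpf (25.3% and 21.4% of all genes), and 1 was higher and 1 lower in Rad21 MO against WT at 4.5 hpf (10.6% and 10.1%). In WT, rescaling gave 0 higher and 5 lower (12.8% and 42.2% of all genes), and quantile normalisation 1 higher and 4 lower (20.4% and 25%). In Rad21 MO, 1 was higher and 0 lower on either scale (13.3% and 0.502% of all genes rescaled, 8.66% and 4.91% after quantile normalisation). As deposited, the higher one in Rad21 MO was coil, which encodes coilin, the scaffold of the Cajal body, at 31.1 ± 6.41 FPKM in Rad21 MO and 11 ± 4.16 FPKM in WT (log2 change of 1.47, adjusted p = 0.0107). In CTCF MO at 5.3 hpf the 1 call as deposited was snupn, the import adaptor of snRNPs, at 71.7 FPKM in CTCF MO and 32.7 FPKM in WT (1.09, adjusted p = 0.0048). In WT at 4.5 hpf both were below their 3.3 hpf level, with log2 changes of -1.84 for coil and -1.44 for snupn.

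The authors' deposited tables of differential genes listed members in the same comparisons. The shares given beside these counts are of all 31966 rows of the gene table, expressed or not, whereas every member had to reach 1 FPKM. They are therefore lower than shares of the genes tested, of which there were 14902 at 4.5 hpf, and the 2 kinds of share cannot be set side by side. The authors' deposited tables for Rad21 MO held 43 members at 4.5 hpf (41 lower and 2 higher, where 11.5% of all genes are listed). The 2 higher were hnrnpc and prpf18. They held 40 at 5.3 hpf (39 lower and 1 higher, 11% of all genes) and 16 at 10 hpf (16 lower, 4.68%). The authors' deposited tables for CTCF MO held 3 members at 4.5 hpf (2 lower and 1 higher; 2.82%) and 21 at 5.3 hpf (20 lower and 1 higher; 6.79%). Of the limma calls above, 37 of 45, 37 of 47 and 8 of 8 for Rad21 MO and 12 of 19 for CTCF MO were in the authors' deposited tables with the same direction. Those tables compare the same groups of libraries, and the overlap was not counted over all genes called. These counts are therefore no further support for the calls. The authors' deposited table for Rad21 MO at 3.3 hpf also listed 2 members as higher (1.02% of all genes listed), hnrnpc (log2 0.41, q = 0.0218) and srsf5a (log2 0.65, q = 0.00356), neither of which passed limma (0.38, adjusted p = 0.45, and 0.62, adjusted p = 0.279).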

How the data were processed

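Total RNA of whole zebrafish embryos was sequenced in 45 libraries. The submitters' processing notes name TopHat2 2.0.9, Cufflinks 2.2.0 and Cuffdiff, and the builds Zv9 and danRer7. No source used here gives the strand settings or the annotation. The deposited gene table holds FPKM per library, and the authors' deposited tables of differential genes hold group FPKM, a log2 fold change, the p-value and q-value, and a test score that was not used here. In that gene table every column names its group but numbers its libraries 0 to 2, where the titles use letters, and 0 columns had no group.

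The FPKM values were put on the scale log2(FPKM + 1), and limma 3.58.1 (R 4.3.3) was fitted over all genes that reached 1 FPKM in at least 3 libraries of the fit. The fit used the 9 libraries of a stage for the knockdown comparisons and the 15 WT libraries for the stage comparisons, 17 comparisons in all, with Benjamini-Hochberg adjustment over all genes tested and a threshold of 0.05. Read counts were not used here, so no count test was run, and precision rests on 3 pools per group. The fits were checked on simulated data with 200 changed genes. Each gene was drawn independently and no differences of scale between libraries were put in. The check therefore cannot show how far the calls of members depend on the scale. The simulation for Rad21 MO against WT at 4.5 hpf, on 14597 genes, recovered 38.1% of changes of 1 and 85.4% of changes of 2 on the log2 scale.

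Genes named with values were, per comparison, the 6 largest rises and 6 largest falls and the 2 smallest adjusted p per class among calls with all 3 libraries on 1 side and a mean of at least 5 FPKM, plus the extremes of level per class; a few other members, such as snrpa1 and snrpd1 in WT at 10 hpf, were named after their values were seen. Alternatives were a pseudocount of 0.1 FPKM, no filter on low values, rescaling to 1 summed FPKM, quantile normalisation, 1 fit of all 45 libraries, and leaving out each library. The members and all lists were chosen with earlier results of these data known. Figures were drawn with matplotlib 3.10.9 in Python 3.11.15. No sequences are shown.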

Additional observations from a re-analysis of the deposited data

Results flagged for a closer look

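Each member that differed between the knockdowns themselves was singled out, because the difference between Rad21 MO and CTCF MO embryos was tested directly. At 4.5 hpf the log2 difference, Rad21 MO minus CTCF MO, was -0.70 for srsf2b and -0.61 for prpf39, and at 5.3 hpf it was -0.51 for prpf39. At 10 hpf it was -1.02 for srsf6b, -0.94 for srsf3a, -0.68 for hnrnpa0l, -0.60 for snrpb2, -0.60 for hnrnph1l, -0.56 for prpf39, -0.55 for SRSF7, -0.54 for srsf6a, -0.50 for SNRPG and -0.48 for snrpa1. Every one of these 13 values was lower in Rad21 MO. At 4.5, 5.3 and 10 hpf, 1.25%, 1.75% and 2.54% of all genes were called lower and 1.51%, 2.75% and 0.843% higher. The 2 calls at 4.5 hpf and the 1 call at 5.3 hpf, each of 65 members tested, were near the share of all genes called in either direction. The gene prpf39 was the 1 that appeared at all of these stages. However, 0 members were called at 4.5 or 5.3 hpf without any 1 of the Rad21 MO libraries. After rescaling to 1 summed FPKM 0 members were called at any of these stages, so all 13 calls were lost on that scale. At 10 hpf SNRPG had 400.1, 372 and 392 FPKM in Rad21 MO and 561, 577 and 506 FPKM in CTCF MO, and snrpb2 had 57.4, 55.6 and 47.5 FPKM in Rad21 MO and 87.5, 72.8 and 84.9 FPKM in CTCF MO.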

How the results depend on the processing

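Of 108 results for named genes, 47 kept their direction and side of the threshold in every alternative, all 108 did with a pseudocount of 0.1 FPKM, and 55 lost the call under rescaling, 36 under quantile normalisation and 10 without a filter. The 1 reversal was prpf31 in WT at 5.3 against 4.5 hpf, at -0.0209 after rescaling. Counts of called members changed as follows. Rescaled to 1 summed FPKM they were 31 (WT 4.5 against 3.3 hpf) and 9 (WT 5.3 against 4.5 hpf); 2, 4 and 0 for Rad21 MO against WT at 4.5, 5.3 and 10 hpf; 4 for CTCF MO against WT at 5.3 hpf; and 0, 0 and 0 for Rad21 MO against CTCF MO at 4.5, 5.3 and 10 hpf. With quantile normalisation they were 9 (WT 5.3 against 4.5 hpf), 14, 15 and 1 (Rad21 MO against WT at 4.5, 5.3 and 10 hpf), 4 (CTCF MO against WT, 5.3 hpf), and 4 and 3 (Rad21 MO against CTCF MO at 5.3 and 10 hpf). Without a filter, 5 were called for Rad21 MO against WT at 10 hpf and 0 and 6 for Rad21 MO against CTCF MO at 4.5 and 10 hpf. The fit of all 45 libraries, with more residual degrees of freedom, gave 24 (Rad21 MO against WT, 10 hpf), 10 and 29 (CTCF MO against WT at 4.5 and 5.3 hpf), and 24, 9 and 23 (Rad21 MO against CTCF MO at 4.5, 5.3 and 10 hpf). The cause of the other shifts was not tested. In the fit of all 45 libraries, 1.81% of all genes were lower and 3.26% higher in CTCF MO against WT at 4.5 hpf. The share of all genes was not counted for its other comparisons or for the fits without a filter. Those counts show how the calls depend on the fit and are not a result about the members.

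Leaving out 1 library at a time gave 2 to 7 calls for WT at 3.3 against 2.5 hpf, 58 to 60 for 4.5 against 3.3 hpf, 21 to 39 for 5.3 against 4.5 hpf and 41 to 45 for 10 against 5.3 hpf. The same gave 20 to 43, 27 to 44 and 0 to 7 for Rad21 MO against WT at 4.5, 5.3 and 10 hpf, 2 to 20 for CTCF MO against WT at 5.3 hpf, and 0 to 5, 0 to 1 and 1 to 8 for Rad21 MO against CTCF MO at 4.5, 5.3 and 10 hpf. A threshold of 5 FPKM would keep 65 members. No paired analysis was possible because the table's columns number the libraries 0 to 2 and the titles letter the replicates, so no column carries a replicate label that could pair groups.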
